A study of Mus musculus with 6 samples.

Results

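The autophagy machinery genes were 38 genes that build the autophagosome, chosen by symbol as a fixed list of the known steps and not by their values. All 38 were present among the 15912 genes of the deposited table, and all 38 passed the filter on low values (at least 10 normalized counts in at least 3 of the 6 libraries). They comprised 2 upstream regulators, 11 initiation genes, 5 genes of membrane supply, 12 conjugation genes, 5 cargo receptors and 3 fusion genes. RNA sequencing had been done on microglia from the hippocampus of male C57BL/6 mice aged 3 months, all of which had received lipopolysaccharide (LPS), an inflammatory constituent of the outer membrane of gram-negative bacteria, at 1 mg/kg into the peritoneum on 4 days. Tissue was taken 24 h after the final dose, and the hippocampi of 2 animals went into each sample. Live CD11b+CD45lo cells, the usual sort gate for microglia, were divided by BODIPY, a dye of neutral lipids, into a dye-low gate (lipid droplet-low, 3 libraries) and a dye-high gate (lipid droplet-rich, 3 libraries), with about 10000 cells sorted. Both gates thus came from LPS-treated mice, and the labels do not say whether samples of a gate came from separate pools of mice, so each p-value rests on the variation among these samples alone, part of which may be technical.

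Macroautophagy wraps cytoplasm in a double membrane and delivers it to the lysosome. The ULK kinase complex starts the process under restraint by mTORC1, a class III phosphatidylinositol 3-kinase complex marks the membrane with its lipid product, and lipid transfer proteins feed the growing sheet. A pair of ubiquitin-like conjugation reactions then couples ATG8 proteins (the LC3 and GABARAP families) to the membrane, cargo receptors tether ubiquitinated or otherwise marked cargo to them, and SNARE proteins fuse the closed vesicle with the lysosome. Lipid droplets are among the known cargoes, a route called lipophagy, and the comparison of the gates asks whether transcripts of this machinery differed between lipid-poor and lipid-rich cells.

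BODIPY-high library 3 stood apart from the other 5. Its chi-square distance to them, per degree of freedom over all tested genes, was 90.3 to 176, against 30.8 to 66.2 among the other pairs. Results that rest on it are therefore also given without it.

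None of the 38 genes passed the test for a difference between the gates. Limma on log2(normalized count + 1), with adjustment over all 12767 tested genes, called 0 members higher and 0 lower in BODIPY-high libraries at an adjusted p under 0.05, and the same counts held without BODIPY-high library 3. Over all tested genes the same test called 2.03% higher and 0.0235% lower. At an unadjusted p under 0.05, 1 member (Optn) was higher and 0 were lower, against 8.03% and 2.27% of all tested genes. Without BODIPY-high library 3 the 1 such member was Atg14 instead (limma, log2 difference 0.29, unadjusted p = 0.021, adjusted p = 0.532). In that fit 965 of 12384 tested genes had an unadjusted p under 0.05, and Optn did not. With the library number as a block, 0 members were called higher and 0 lower (background 4.37% and 0.462%). At an unadjusted p under 0.05 that fit had 4 members higher (Optn, Atg14, Atg7 and Nbr1) and 0 lower, against 11.6% and 6.28% of all tested genes. EdgeR and DESeq2 on recovered reads called 0 and 0 members in either direction (background 1.75% and 3.89%). The log2 differences, BODIPY-high minus BODIPY-low, ran from -0.20 (Atg101) to 0.63 (Optn), with a median of 0.064 over the members and -0.0043 over all tested genes. Without BODIPY-high library 3 the member median was 0.033. Of the members 24 were positive and 14 negative, while 49.2% of all tested genes were positive. In bulk RNA such as this, fewer cells of a type and less RNA per cell cannot be told apart.

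The intervals describe how large a difference the values of each gene allow, and not how large a difference must be to pass the test. That of Optn excluded 0, and Optn was still not called. The 95% limma intervals, each for its own gene and not adjusted for the number of genes, had a median half-width of 0.30 on the log2 scale (range 0.19 to 0.55). For 37 of 38 members the interval lay inside a 2-fold difference either way, and for 32 inside a 1.5-fold difference. The interval of Optn reached 2.19-fold. Those of Wipi1 and Gabarapl1 reached 1.65-fold and 1.60-fold, and those of Ulk1, Atg7 and Epg5 passed the 1.5-fold bound narrowly. The median absolute log2 difference was 0.088 over the members and 0.16 over all tested genes.

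**Figure D1:**
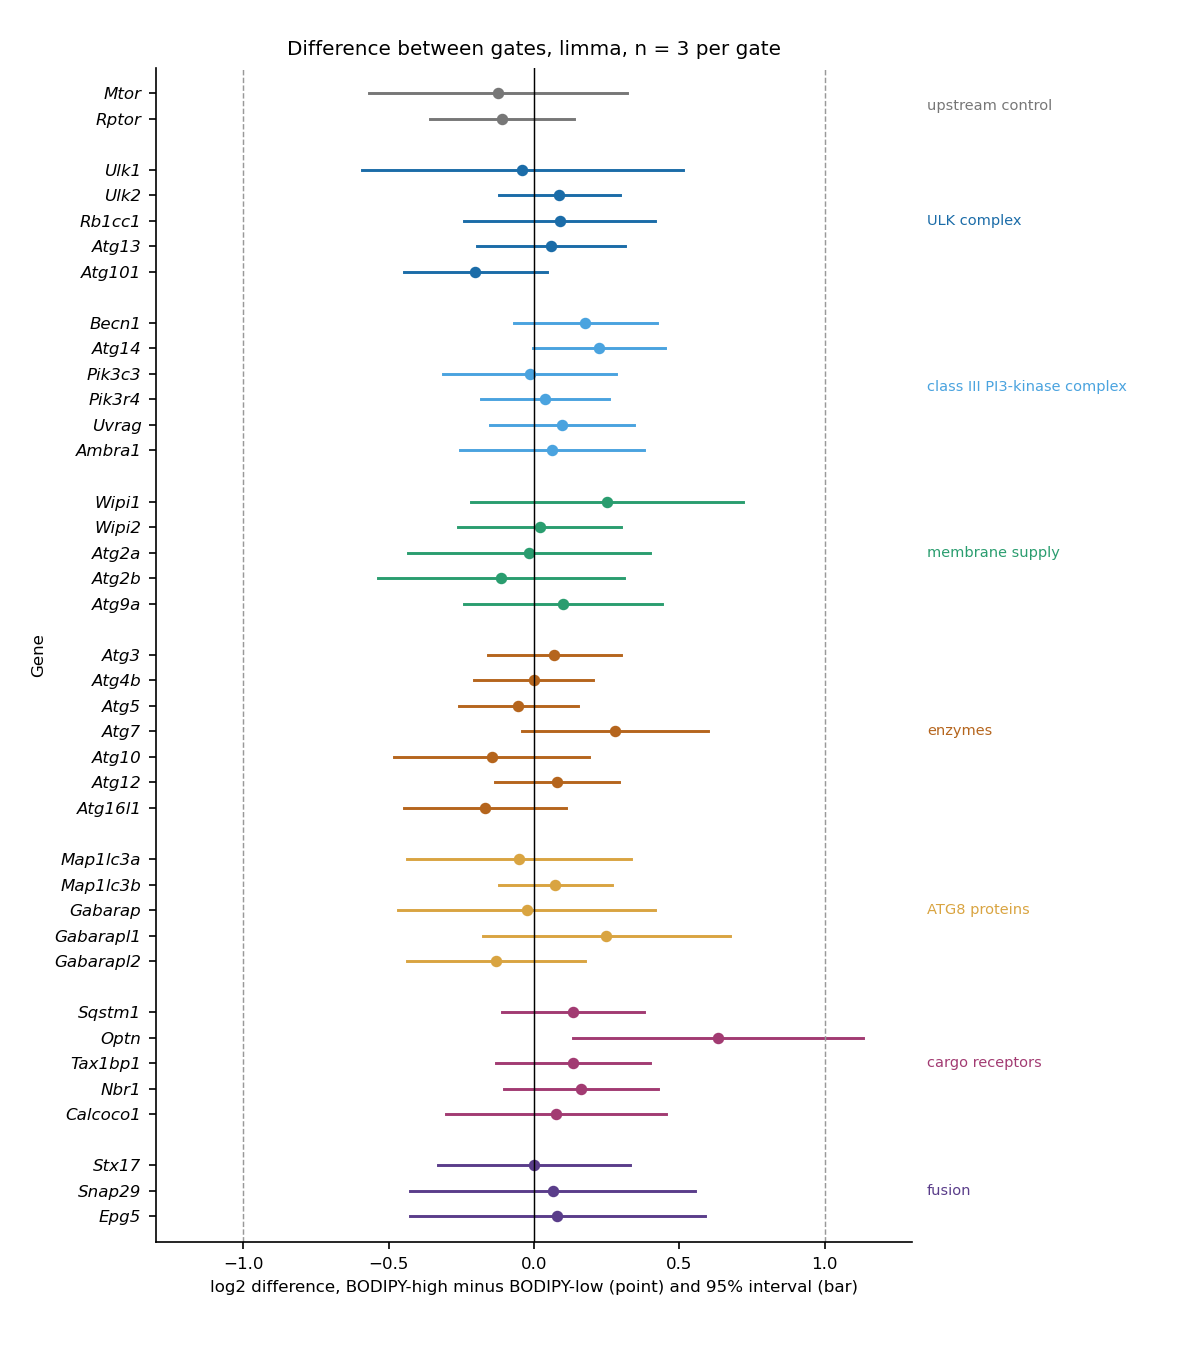
Log2 difference of each autophagy gene between gates (x axis, BODIPY-high minus BODIPY-low on the log2(normalized count + 1) scale), grouped by step on the y axis; points are limma estimates from 3 libraries per gate, bars their 95% intervals, and dashed lines mark a 2-fold difference. The interval of Optn alone excludes 0 and alone crosses the 2-fold line.

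Levels of the members spanned a wide range that both gates shared. Per kilobase of the longest coding transcript, the ubiquitin receptor Sqstm1 (p62) had the highest mean of the members in each gate, with 4188 ± 284 and 4610.0 ± 528 normalized counts per kb in BODIPY-low and BODIPY-high libraries (SD, n = 3 per gate). The ATG8 genes Gabarap (3682 ± 805 and 3634 ± 919) and Map1lc3b (3017 ± 173 and 3172 ± 91.9) came next. The spread of Gabarap between libraries covered the level of Map1lc3b and reached that of Sqstm1, and in BODIPY-low library 3 Gabarap (4587) stood above Sqstm1 (4448). At the other end stood the tethering factor Epg5 (48.3 ± 10.3 and 51.1 ± 11.1) and the phosphoinositide effector Wipi1 (56.1 ± 3.89 and 66.8 ± 1.93), the lowest means of each gate. The receptor Optn (63.5 ± 7.39 and 98.5 ± 10.4) was next in the low gate, whereas in the high gate the means of Mtor (79.6 ± 17.8) and Atg2b (96.9 ± 21.7) lay below it, the latter by less than the spread between libraries. Some genes of the same step were far apart on this per-length scale, which depends on the transcript length used. Rptor, the mTORC1 scaffold, had 15.5 to 19.9 times the level of Mtor, its kinase, in the 6 libraries, and the kinase gene Ulk2 had 4.67 to 8.33 times that of its paralog Ulk1. Both ratios overlapped between gates. Together the 38 genes took 0.265 to 0.297% of all normalized counts in BODIPY-low libraries and 0.281 to 0.316% in BODIPY-high libraries, and these ranges overlapped.

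**Figure D2:**
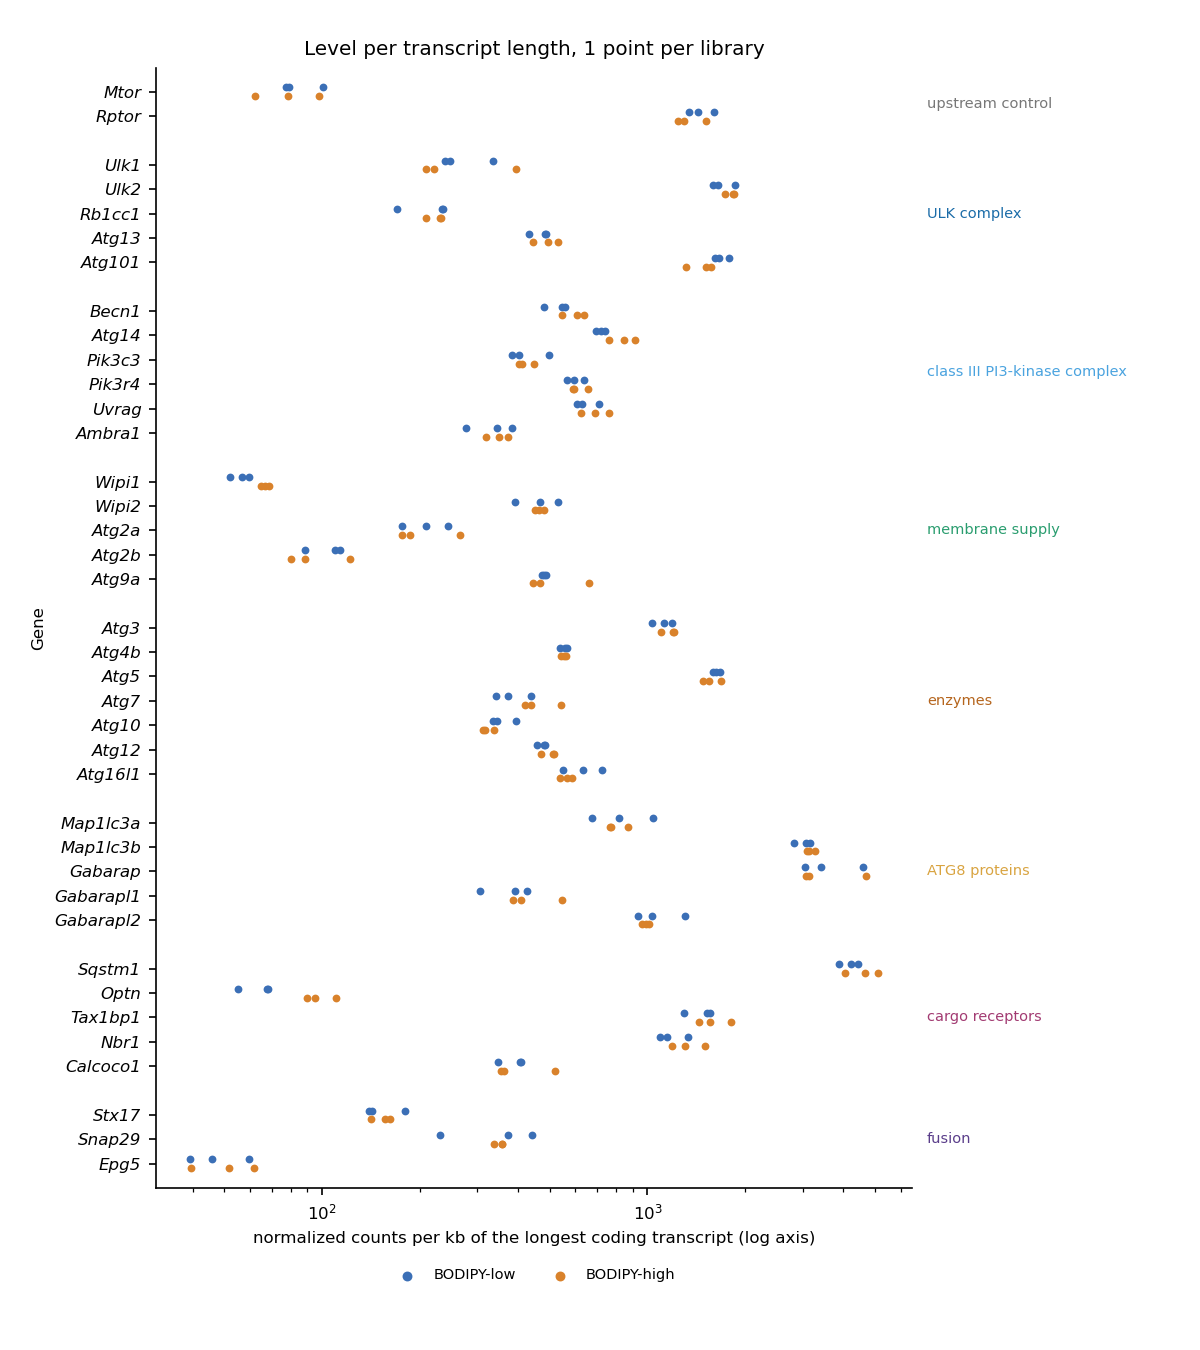
Level of each autophagy gene in each library (x axis, normalized counts per kb of the longest coding transcript, log axis), grouped by step on the y axis, with 1 point per library and the gates in different colours. Sqstm1, Gabarap and Map1lc3b lie at the high end and Epg5 and Wipi1 at the low end in both gates.

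Transcription of many lysosomal and autophagy genes is known to be driven by TFEB, TFE3 and MITF, which bind an E-box with the core CACGTG. The promoters of the members were searched for this palindrome, which reads the same on both strands, in RefSeq windows (GRCm38.p6) of 250 bases before to 50 after a gene's start. Windows were found for 31 of the 38 genes. The core occurred in 4 of these 31 genes (12.9%) and in 8.09% of all genes with such windows. Longer forms of the motif are not reported here. The matches are printed because they fall in Atg14, the initiation gene of largest positive difference, and in 3 enzymes of the conjugation step, with the core in capitals, 5′ to 3′ on the gene's strand.
Atg14, chr14:47568418-47568447, minus strand: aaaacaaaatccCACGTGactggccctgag
Atg3, chr16:45158723-45158752, plus strand: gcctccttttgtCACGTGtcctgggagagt
Atg3, chr16:45158746-45158775, plus strand: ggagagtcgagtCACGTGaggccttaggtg
Atg5, chr10:44268313-44268342, plus strand: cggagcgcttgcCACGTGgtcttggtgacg
Atg7, chr6:114670952-114670981, plus strand: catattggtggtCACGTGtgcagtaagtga
A match of letters is a description and not a binding site. The starts that RefSeq lists here for Atg14, Atg3 and Atg7 lie inside the annotated genes, downstream of their first annotated base. The printed Atg3 windows themselves lie before that base. The 4 genes did not share a direction: the log2 differences were 0.22 for Atg14, 0.28 for Atg7, 0.070 for Atg3 and -0.054 for Atg5, and none passed the test.

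The kinase mTOR and its scaffold Raptor, which restrain the ULK complex when nutrients are ample, had small negative differences that did not pass. Mtor (chromosome 4, 148448611 to 148557683, mm10) had 863, 678 and 664 normalized counts in BODIPY-low libraries 1, 2 and 3 and 838, 532 and 674 in BODIPY-high libraries 1, 2 and 3. Rptor (chromosome 11, 119602905 to 119899576) had 10550.2, 8829 and 9404 against 9982, 8171 and 8552. The values overlapped between gates for both genes, and library 1 was the highest of each gate for both. The log2 differences were -0.12 ± 0.20 (SE, limma, adjusted p = 0.909) and -0.11 ± 0.11 (adjusted p = 0.843), with Rptor lower in the BODIPY-high library of all 3 same-numbered pairs.

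Initiation begins with the ULK complex, in which ULK1 or ULK2 is the kinase, RB1CC1 (FIP200) the scaffold and ATG13 and ATG101 its partners. Summed over these 5 genes the level was 16645 ± 1231 in BODIPY-low and 17119.8 ± 762 in BODIPY-high libraries (normalized counts, SD, n = 3). Atg101 (chromosome 15, 101284272 to 101290945) had 2103, 2256 and 2050.0 normalized counts in the BODIPY-low libraries and 1991, 1921 and 1670.0 in the BODIPY-high libraries. Every BODIPY-high value lay below every BODIPY-low value, and Atg101 was the single member with that order, which 5.95% of all tested genes had. Its log2 difference was -0.20 ± 0.11 (limma, adjusted p = 0.607), a difference that did not pass. Ulk2 (chromosome 11, 61775649 to 61855073), the most abundant of the 5 by counts, had 9456, 9158 and 10702 against 9958, 10535 and 10585 and overlapped between gates (0.087 ± 0.092, adjusted p = 0.849). Ulk1, Rb1cc1 and Atg13 had differences of -0.041 to 0.089 (adjusted p of 0.914 to 0.984). Ulk1 ranged from 1091 to 2058 normalized counts among BODIPY-high libraries, with library 3 the highest of both gates. Without BODIPY-high library 3 the log2 difference of Ulk1 was -0.33 and that of Atg101 -0.13.

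The class III phosphatidylinositol 3-kinase complex supplies the lipid that recruits later factors, with PIK3C3 (VPS34) as the lipid kinase, PIK3R4 (VPS15) and Beclin 1 as core subunits, ATG14 directing it to autophagosomes, UVRAG taking the place of ATG14 in an endosomal form and AMBRA1 binding Beclin 1. Of these 6 genes 5 had positive differences, and the sum was 14317 ± 416 in BODIPY-low and 15425 ± 422 in BODIPY-high libraries. Each BODIPY-high sum (15848, 15424 and 15004) lay above each BODIPY-low sum (14626, 13844 and 14479.8), which is described here without a test. Of the 6 genes only 1, Atg14, had no overlap between gates by itself. The same order of sums held outside the members for 17 mTORC1 and AMPK signaling genes (44026 to 45375 in BODIPY-low, 45700 to 46731 in BODIPY-high). It also held for all 59 other pathway genes tested (212022 to 216950 in BODIPY-low, 220698 to 225990 in BODIPY-high). The sums of the other member steps overlapped between gates. Atg14 (chromosome 14, 47540893 to 47570649) had 2596, 2692 and 2754 normalized counts in the low gate and 3148, 3419 and 2849.9 in the high gate, without overlap. Its log2 difference of 0.22 ± 0.10 did not pass (limma, adjusted p = 0.499; 0.222 with the block), and its interval ran from -0.0036 to 0.45. Without BODIPY-high library 3 the difference of Atg14 was 0.29 (limma, adjusted p = 0.532). Becn1 (chromosome 11, 101285952 to 101302286) had 2099, 2441 and 2381 against 2385, 2783 and 2654, with BODIPY-high library 1 only just above BODIPY-low library 3 and below BODIPY-low library 2 (0.18 ± 0.11, adjusted p = 0.674). Annotated exons of Cntd1, on the other strand, cover 3104 of the 7065 annotated exon bases of Becn1, and the kits used do not mark strand, so reads there cannot be told apart; Cntd1 itself had a mean of 17.2 normalized counts. Uvrag (chromosome 7, 98885021 to 99141141), the most abundant of the 6 by counts, had 3652, 3128 and 3239 against 3926, 3228 and 3561 (0.10 ± 0.11, adjusted p = 0.865), and stretches of 214 to 345 bases of its longest transcript match 15 other genes at up to 96.2% identity, so its count is uncertain. Pik3c3, Pik3r4 and Ambra1 had differences of -0.015 to 0.063 (adjusted p of 0.94 to 0.989).

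WIPI proteins read the lipid mark, ATG2 proteins transfer lipids into the growing membrane and ATG9A, a scramblase, travels on the vesicles that seed it. Wipi1 (chromosome 11, 109573331 to 109611967) had 173, 189.8 and 199 normalized counts in BODIPY-low and 229, 216 and 223 in BODIPY-high libraries. The gates did not overlap, and the difference of 0.25 ± 0.21 did not pass (limma, adjusted p = 0.785). Wipi2 (chromosome 5, 142627698 to 142670588), the most abundant of these genes by counts, had 2022, 2409 and 2739 against 2330.4, 2492 and 2395 (0.020 ± 0.12, adjusted p = 0.984). Atg9a (chromosome 1, 75180860 to 75192196) had 2006, 2029.6 and 2057 against 1879, 1970.2 and 2783: BODIPY-high library 3 stood above the other 5, which lay close together (0.10 ± 0.15, adjusted p = 0.904). Without that library the difference was -0.078. Annotated exons of Gm29253, on the same strand, cover 1832 of the 5762 annotated exon bases of Atg9a, so its count is uncertain. Atg2a and Atg2b had differences of -0.017 and -0.11 (adjusted p = 0.99 and 0.912).

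Conjugation enzymes had 0 calls in either direction. ATG7 acts as the activating enzyme of both reactions, ATG10 and ATG3 as the conjugating enzymes for ATG12 and the ATG8 proteins, the ATG12-ATG5 conjugate with ATG16L1 as the ligase that sets the site of lipidation, and ATG4B as the protease that trims and recycles ATG8 proteins. The 7 genes summed to 14762 ± 615 in BODIPY-low and 14899 ± 230.0 in BODIPY-high libraries. Differences ran from -0.17 to 0.28, with 3 positive and 4 negative. Atg4b gave nearly one value in all libraries, 2249 to 2354 normalized counts (log2 difference -0.0013, interval -0.21 to 0.20). Atg7 (chromosome 6, 114643097 to 114860614), whose E-box window is printed above, had 1333, 1705 and 1454 in the low gate and 1635, 1704 and 2118 in the high gate. BODIPY-low library 2 equalled BODIPY-high library 2 to within 1 count, and the difference of 0.28 ± 0.14 did not pass (limma, adjusted p = 0.571), nor did the 0.16 without BODIPY-high library 3 (adjusted p = 0.835). Atg16l1 (chromosome 1, 87755870 to 87792428) had 1727, 2275 and 1989 against 1777, 1689 and 1834, overlapping between gates (-0.17 ± 0.12, adjusted p = 0.748). Atg5 (chromosome 10, 44268358 to 44364291), the most abundant enzyme gene by counts, had 3832, 3932 and 3741 against 3638, 3969 and 3492 (-0.054 ± 0.091, adjusted p = 0.915). Atg3, Atg10 and Atg12 had differences of -0.15 to 0.078 (adjusted p of 0.846 to 0.897). Atg10 was lower, and Atg12 higher, in the BODIPY-high library of 3 of 3 pairs.

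The ATG8 proteins are the ubiquitin-like tags of the autophagosome, and the LC3 branch (Map1lc3a, Map1lc3b) and the GABARAP branch (Gabarap, Gabarapl1, Gabarapl2) were both expressed. Per kilobase, Gabarap made up 36.2 to 45.9% and Map1lc3b 29.5 to 38.6% of the summed level of the 5 genes over the 6 libraries. Their order was not fixed, since Map1lc3b was ahead in BODIPY-high libraries 1 and 2. It also depended on the transcript length used. By counts the means were 7944 and 8352 for Map1lc3b against 4974 and 4910 for Gabarap in BODIPY-low and BODIPY-high libraries. Gabarapl2 followed with 9.92 to 12.6%, Map1lc3a with 8.51 to 9.99% and Gabarapl1 with 3.51 to 5.38%. Map1lc3b, the form whose lipidation is the usual assay of autophagosomes (chromosome 8, 121590361 to 121598760), had 7439, 8319 and 8074 normalized counts in the low gate and 8262, 8626 and 8167 in the high gate. These values overlapped, and the difference of 0.073 ± 0.085 (limma, adjusted p = 0.867) had an interval of -0.12 to 0.27. Gabarapl1 (chromosome 6, 129533160 to 129542346) had 775, 558 and 715 against 703, 742 and 996, with BODIPY-high library 3 the highest and BODIPY-low library 2 the lowest (0.25 ± 0.19, adjusted p = 0.763; 0.095 without BODIPY-high library 3). Gabarapl2 (chromosome 8, 111940703 to 111953612) had 1573, 1732 and 2195 against 1664, 1608 and 1701 (-0.13 ± 0.14, adjusted p = 0.846); 3 processed pseudogenes match its transcript at 96.6 to 99.4% identity over 349 to 352 bases, so its count is uncertain. Map1lc3a and Gabarap had differences of -0.051 and -0.025 (adjusted p = 0.965 and 0.986). Of the 2013 annotated exon bases of Gabarapl1, 570 are shared with 1700101I11Rik on the other strand.

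Cargo receptors bind cargo at one end and ATG8 proteins at the other. All 5 had positive log2 differences, from 0.075 to 0.63, and the list median was 0.13 against -0.0043 for all tested genes. This shared sign rested on BODIPY-high library 3. Without it Calcoco1 was negative (-0.10), and Sqstm1, Tax1bp1 and Nbr1 fell to 0.058, 0.043 and 0.074. None of the 5 passed limma, and 1 (Optn) had an unadjusted p under 0.05, or 2 (Optn and Nbr1) with the block. Optineurin (Optn, chromosome 2, 5020642 to 5064051), a receptor for ubiquitinated mitochondria and bacteria, had 143.7, 176.3 and 177.9 normalized counts in BODIPY-low libraries and 235.2, 249.3 and 287.8 in BODIPY-high libraries. All BODIPY-high values lay above all BODIPY-low values. This was the largest difference among the members, 0.63 ± 0.22 on the log2 scale or 1.55-fold (interval 1.10 to 2.19), and it did not pass over all genes (limma, unadjusted p = 0.0187, adjusted p = 0.312; 0.13 with the block, 0.348 by edgeR and 0.217 by DESeq2). Without BODIPY-high library 3 it was 0.55 (limma, adjusted p = 0.676), and the unadjusted p of Optn was then not under 0.05. Sqstm1 (chromosome 11, 50199366 to 50210827), which gathers ubiquitinated proteins, had 10386, 11310.1 and 11889.6 against 10831, 12502 and 13635. Its gates overlapped, since BODIPY-high library 1 lay below BODIPY-low libraries 2 and 3 (0.13 ± 0.11, adjusted p = 0.784), and 580 of its 3356 annotated exon bases are shared with Mrnip on the other strand. Within a library, where the size factor cancels, Sqstm1 had 70.7, 62.7 and 65.3 times the level of Optn per kilobase in BODIPY-low libraries and 45.0, 49.0 and 46.3 times in BODIPY-high libraries. This ratio was chosen after the values were seen and was not tested. It follows mainly from the difference of Optn, which did not pass. Nbr1 (chromosome 11, 101552149 to 101581951), a receptor that cooperates with p62, had 5481, 5239 and 6378 against 6247, 5716 and 7196, overlapping between gates (0.16 ± 0.12, adjusted p = 0.743). Tax1bp1 and Calcoco1 had differences of 0.13 and 0.075 (adjusted p = 0.807 and 0.94).

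Fusion with the lysosome uses the SNARE proteins syntaxin 17 (Stx17) and SNAP29, with EPG5 as a tether. The 3 genes summed to 2552 ± 451 in BODIPY-low and 2586 ± 53.8 in BODIPY-high libraries. Snap29 (chromosome 16, 17405986 to 17430827) had 1280.4, 793 and 1519 normalized counts in the low gate and 1163, 1231 and 1232 in the high gate, so BODIPY-low libraries 2 and 3 were the lowest and the highest of all 6 (0.065 ± 0.22, limma, adjusted p = 0.965). Epg5 (chromosome 18, 77938465 to 78035013) had 575, 443 and 380.1 against 501, 383 and 598, again overlapping (0.080 ± 0.22, adjusted p = 0.953). Stx17 differed by 0.00032 on the log2 scale, with an interval of -0.33 to 0.33 (adjusted p = 0.999).

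Lack of overlap between gates was seen for 3 members in the direction of BODIPY-high (Optn, Atg14, Wipi1) and 1 in the other (Atg101), against 10.4% and 5.95% of all tested genes. In same-numbered pairs, 9 members were higher in the BODIPY-high library 3 of 3 times (Becn1, Atg14, Uvrag, Wipi1, Atg12, Map1lc3b, Sqstm1, Optn, Nbr1) and 3 were lower (Rptor, Atg101, Atg10), against 20.7% and 19% of all tested genes. On the log2 scale the mean square between library numbers exceeded that between gates for 24 of 38 members and for 58.3% of all tested genes. Library 3 was the highest of both gates for 14 members, among them 4 of the 5 ULK complex genes (Ulk1, Ulk2, Rb1cc1, Atg13) and 3 of the 5 ATG8 genes (Map1lc3a, Gabarap, Gabarapl2), against 21.1% of all tested genes. Library 1 was the highest of both for 6 members (16.4% of all) and library 2 for 3 (11.4%).

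**Figure D3:**
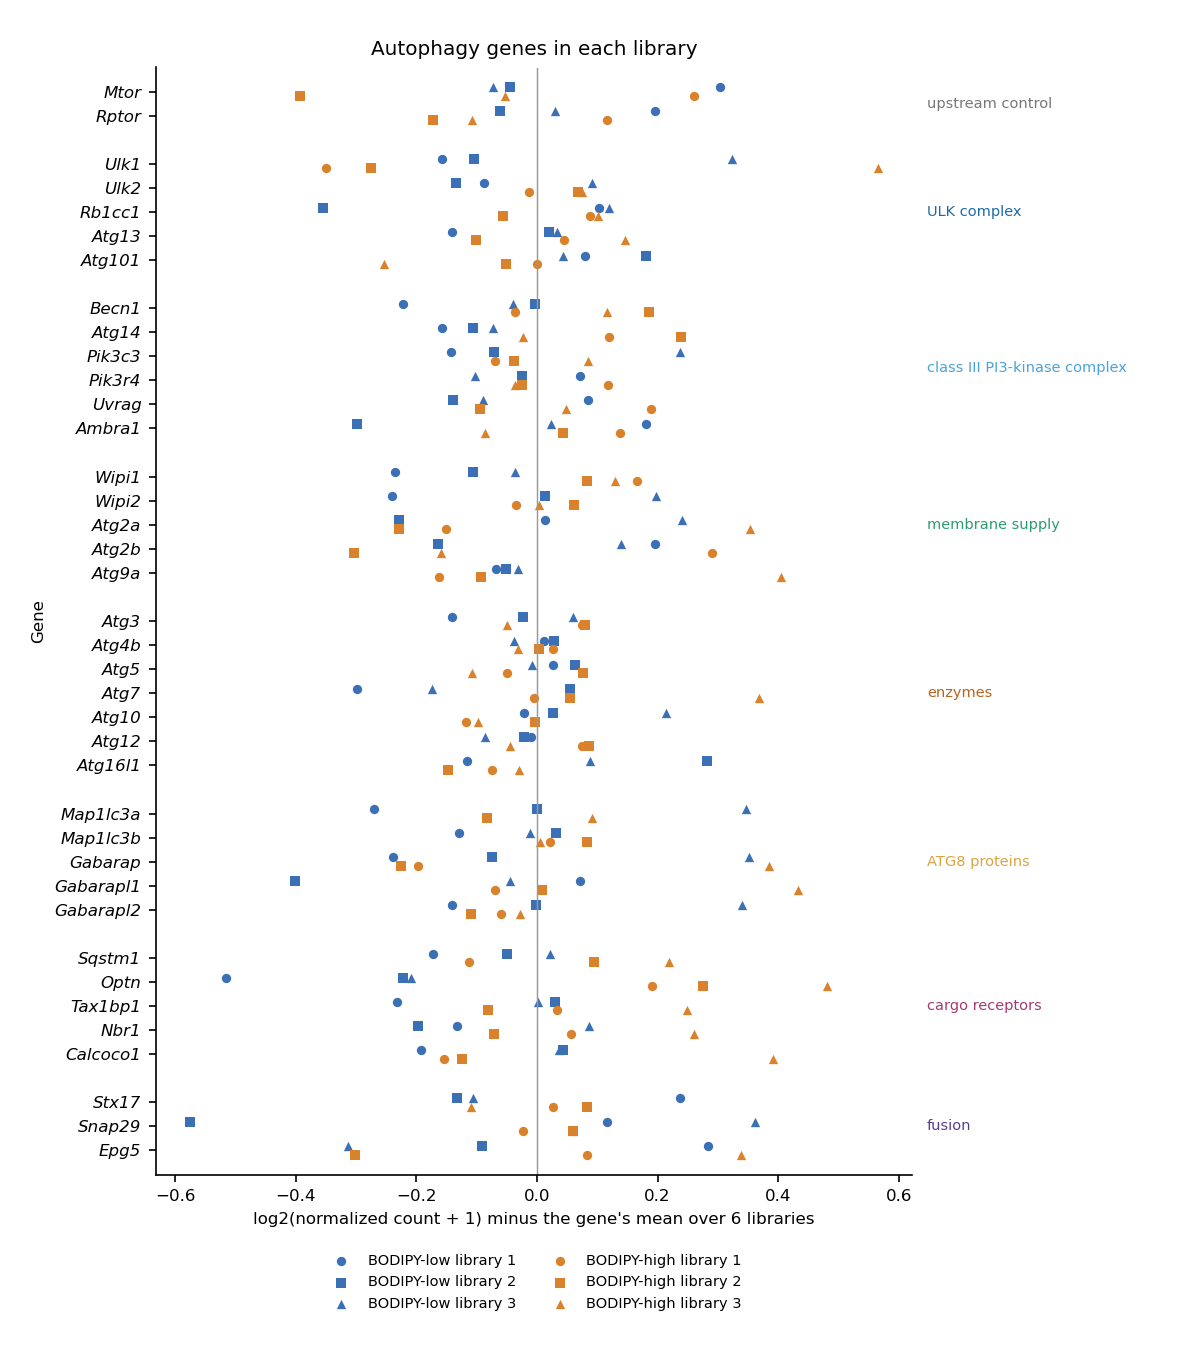
Each library's value of each autophagy gene as log2(normalized count + 1) minus the gene's mean over the 6 libraries (x axis), grouped by step on the y axis; colour marks the gate and symbol shape the library number. Gates are separated for Optn, Atg14, Wipi1 and Atg101, while library 3 of both gates stands to the right for genes such as Ulk1 and Gabarap.

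Genes of the wider pathway gave the same count. Of 60 further genes, 59 were found in the table (3 under an older symbol) and tested, and limma called 0 higher and 0 lower, as did the fit with the block, and edgeR and DESeq2 called 0 and 0; at an unadjusted p under 0.05, 7 were higher and 0 lower, against 8.03% and 2.27% of all tested genes. Of the 12 autophagosome-lysosome fusion partners 3 were among these 7, 8 were positive and the median was 0.15. Vps16 and Vps39, subunits of the HOPS tethering complex, had 1764, 1737 and 1660.5 against 2200.2, 2053 and 2002 and 3677, 3563 and 3747 against 4573, 4144 and 4246 normalized counts, without overlap. Their log2 differences were 0.28 ± 0.10 and 0.24 ± 0.087 (limma, adjusted p = 0.324 and 0.352). Among further core genes the lowest p belonged to Atg16l2, a paralog of Atg16l1 (161, 199 and 237 against 262, 271 and 369.7; 0.59 ± 0.24, adjusted p = 0.425), and the segregase gene Vcp (0.19 ± 0.084, adjusted p = 0.472). In the mTORC1 and AMPK list they belonged to the mTOR inhibitor gene Deptor (0.47 ± 0.20, adjusted p = 0.45) and the Rag GTPase gene Rraga (-0.29 ± 0.14, adjusted p = 0.522), and the list median was -0.014. Among selective autophagy genes they belonged to the mitophagy kinase gene Pink1 (0.21 ± 0.091, adjusted p = 0.479) and Tollip (0.20 ± 0.10, adjusted p = 0.582). Of the TFEB family, Mitf differed by -0.17 ± 0.17 (adjusted p = 0.839), Tfe3 by 0.064 ± 0.10 (adjusted p = 0.911) and Tfeb by -0.017 ± 0.12 (adjusted p = 0.986).

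Recovered totals were 34899413 to 39220494 reads per library. Microglial markers (Tmem119, P2ry12, Cx3cr1 and 7 others) were present in every library, with 0 of 10 called by limma. With the block, and by DESeq2, 1 was called lower (Olfml3). All 10 differences were negative, with a median log2 difference of -0.21. Markers of other cells moved with the gate: 6 of 6 choroid plexus markers and 9 of 11 border-associated macrophage markers rose (limma, adjusted p under 0.05), as did 4 of 8 astrocyte and 2 of 7 oligodendrocyte markers tested. With the block the counts were 11 for border-associated macrophages, 6 for astrocytes and 3 for oligodendrocytes. The summed border-associated macrophage markers were 3391, 2623 and 7655 normalized counts in BODIPY-low and 23099, 30472 and 86138 in BODIPY-high libraries, and the choroid plexus markers 306, 479 and 2287 and 39463, 51759 and 51678. Both sums were highest of the low gate in library 3, and the macrophage sum was also highest of the high gate in library 3. Summed monocyte and neutrophil markers were 44314, 129104 and 135845 and 51057, 82889 and 194739, with 0 of 10 called by limma and 2 (Retnlg and Mmp9) higher with the block. Limma called 0 of 7 endothelial and 0 of 3 tested neuron markers (0 and 1 at an unadjusted p under 0.05, and 0 by edgeR and DESeq2), and the neuron gene Snap25 had 2.19 to 35.9 normalized counts. Optn, Atg14 and Wipi1 were highest in the gate that held more of these other-cell markers, and the part of those cells in the values was not tested.

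**Figure D4:**
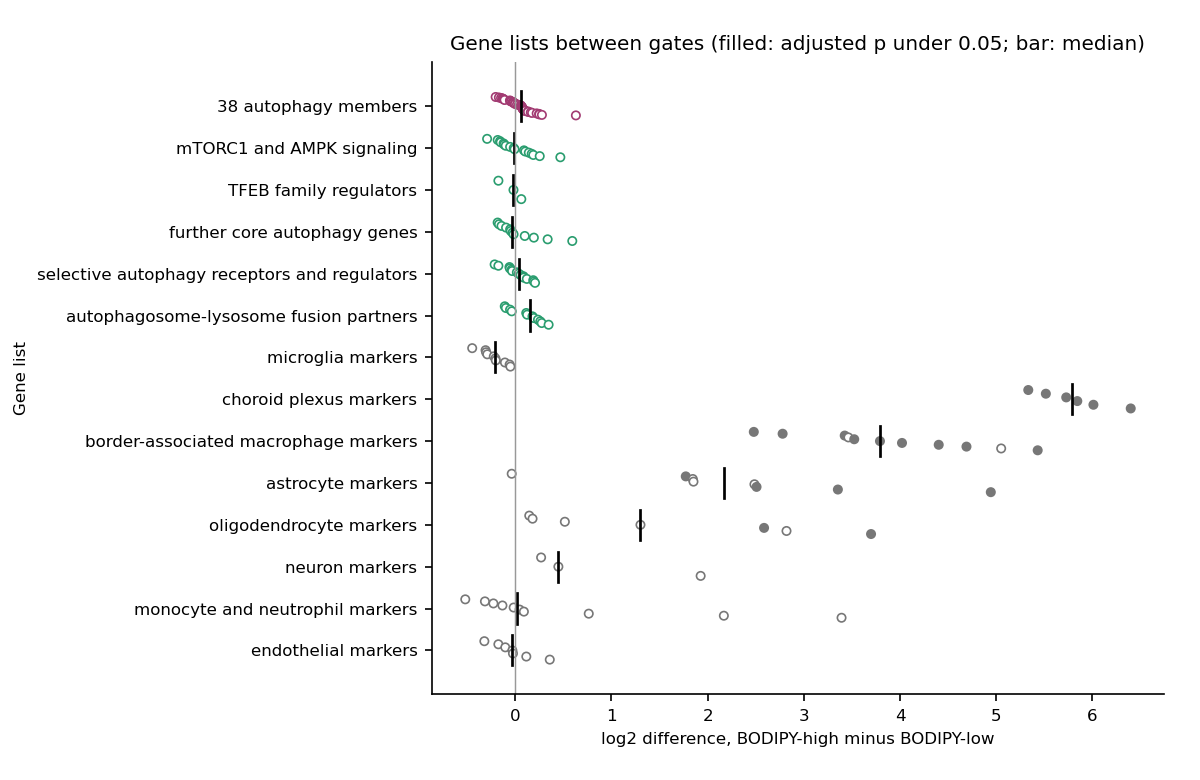
Log2 difference between gates (x axis, BODIPY-high minus BODIPY-low) for the 38 autophagy genes, 5 lists of other pathway genes and 8 lists of cell type markers (y axis); each point is a gene, filled where its limma adjusted p is under 0.05, and the black bar is the list median. Autophagy points are all open and lie near 0, while choroid plexus and border-associated macrophage markers lie far to the right.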

How the data were processed

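Per the series' design text, the authors mapped reads to mm10 (STAR 2.5.3a), counted them per gene and used DESeq2. The submitters' processing notes also list mm9; annotation and strand setting are not given in the sources used here. Values were deposited as normalized signal, that is, read counts scaled by 1 factor per library (0.911 to 1.09). All were whole multiples of 1 read within 0.05 of a read (100.0%), which gave reads for edgeR 4.0.16 and DESeq2 1.42.0. Depth was 34899413 to 39220494 reads. PBS libraries were not analysed here.

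Limma-trend (limma 3.58.1, R 4.3.3) was run two-sided on log2(value + 1), gate as the only term, for genes with at least 10 normalized counts in at least 3 libraries, with Benjamini-Hochberg adjustment; this scale understates folds of low genes. Deviations from gate means correlated at 0.244 to 0.363 between same-numbered libraries and -0.255 to -0.0951 otherwise, so the number in the titles served as a block in an alternative fit. Other alternatives varied pseudocount, filter, scaling, tool and libraries. The fits were also run on simulated counts, drawn with the same spread setting for all genes and no effect of library number. That run does not show how they perform on these libraries.

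Members were chosen by symbol and not by their values, but they and the other lists were chosen with earlier results of these data known. Values in each library are given for members without overlap, the 2 of smallest p and the most abundant of each step; of other lists, the 2 of smallest p are named. Positions, lengths and exons are from GENCODE M21 (GRCm38, the same assembly as mm10), copies are BLAST 2.17.0 matches of at least 95% identity over 200 bases, and promoters are from RefSeq.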

Additional observations from a re-analysis of the deposited data

How the results depend on the processing

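No member and no other pathway gene passed the threshold in any of 15 alternatives (2 other pseudocounts, 2 other filters, TMM scaling, the replicate block, edgeR, DESeq2, 6 fits without 1 library and, added after seeing the data, 1 without library 3 of both gates). The lowest adjusted p of a member was 0.13 (Optn, replicate block), and that of Optn ran from 0.13 to 0.734 with log2 differences of 0.53 to 0.69. The median of the members stayed between 0.033 and 0.10, and 20 of 38 kept the sign of their difference throughout, while 18 uncalled ones, such as Ulk1, Gabarap and Snap29, did not. Counts over all tested genes were less steady, and the cause was not tested beyond the fewer genes or libraries that some settings use. The main 259 higher and 3 lower became 131 and 1 with a minimum of 50 normalized counts, 558 and 59 with the replicate block and 464 and 32 by DESeq2, and edgeR gave 1 lower. Leaving out 1 library gave 11 (without BODIPY-high library 2) to 277 (without BODIPY-low library 3) higher, with 45 and 97 without BODIPY-high libraries 3 and 1 and 120 and 135 without BODIPY-low libraries 2 and 1, and 0 to 2 lower by limma (824 to 1242 genes at an unadjusted p under 0.05). Leaving out library 3 of both gates gave 113 and 0 (1087). Beyond these counts and the marker counts given above, the block changed no call. With 3 libraries per gate a difference can be present without a call, so absence of a call does not show equal expression.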
